A study of Mus musculus with 2 samples.

Results

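The 10 genes described here are 5 ligands of the Notch pathway (Dll1, Dll3, Dll4, Jag1 and Jag2) and 5 Hes and Hey genes that Notch signalling turns on (Hes1, Hes5, Hey1, Hey2 and Heyl), taken by name out of 21755 protein-coding genes. Trimethylation of histone H3 at lysine 27 (H3K27me3), the mark of Polycomb repressive complex PRC2, was mapped over them by chromatin immunoprecipitation and sequencing (ChIP-seq) in E14TG2a.4, a male embryonic stem cell line from mice of strain 129/Ola for which an age of embryonic day 3.5 is recorded. The 2 samples, biological replicates 1 and 2, form a single group with no genetic change or treatment named, so there was no second condition to compare. Each replicate had its own list of peaks, 63651 in replicate 1 and 98582 in replicate 2, covering 53.6 Mb and 58.4 Mb of the autosomes and the X chromosome. Whether the replicates came from separate cultures is not stated beyond the word biological, and the read depth behind the lists is unknown, so an absent peak can also mean too few reads. A peak list holds no expression, so the cell type was looked at only through the mark. The pluripotency regulators Pou5f1, Nanog and Sox2 had 0 bp under peaks within 1 kb of their start in either replicate. The lineage regulators Pax6, Gata6 and T had the whole 2001 bp covered in both. The former were picked as unmarked and the latter as marked genes, so they are no independent check of the cell type. Other genes of either kind were not looked at here.

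Notch signalling passes between touching cells. Delta-like and Jagged ligands on the surface of a sending cell bind Notch receptors on its neighbour, proteases then cut the receptor, and its freed intracellular part enters the nucleus and joins the DNA-binding protein RBPJ to activate target genes, foremost the Hes and Hey genes. These encode basic helix-loop-helix repressors that hold back differentiation, and the pathway is known for its part in the timing of neurogenesis, the segmentation of somites and the formation of arteries in the embryo.

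Sequence upstream of the start is shown for 3 ligands and 2 targets that differ in how the mark lies over them: Dll4 and Dll1, covered without a break over the bases shown, Jag1, with no peak over them, Hes5, with a short break, and Hey2, inside a longer break. The RefSeq promoter table (GRCm38.p6) held an entry for 7 of the 10 genes, with none used here for Hes1, Hey1 and Heyl. Each run reads 5′ to 3′ on the strand of the gene and ends just before the transcribed part in RefSeq or in GENCODE, whichever begins first. Capitals mark matches to GTGGGAA, the core of the RBPJ motif, on either strand. Dll4 is chr2:119325534-119325783 on the plus strand, with all 250 bases under peaks in both replicates. Dll1 is chr17:15376933-15377182 on the minus strand, again with 250 of 250 bases covered in both. Jag1 is chr2:137116645-137116770 on the minus strand, where 0 of 126 bases were covered. Hes5 is chr4:154960673-154960922 on the plus strand, with 115 of 250 bases covered in replicate 1 and 150 in replicate 2. Hey2 is chr10:30842802-30843033 on the minus strand, with 0 of 232 bases covered in either replicate.
Dll4: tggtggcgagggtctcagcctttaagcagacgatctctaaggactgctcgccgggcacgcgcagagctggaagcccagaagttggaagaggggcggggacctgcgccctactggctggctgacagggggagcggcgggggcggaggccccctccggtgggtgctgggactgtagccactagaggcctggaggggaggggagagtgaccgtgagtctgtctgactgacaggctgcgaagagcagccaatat
Dll1: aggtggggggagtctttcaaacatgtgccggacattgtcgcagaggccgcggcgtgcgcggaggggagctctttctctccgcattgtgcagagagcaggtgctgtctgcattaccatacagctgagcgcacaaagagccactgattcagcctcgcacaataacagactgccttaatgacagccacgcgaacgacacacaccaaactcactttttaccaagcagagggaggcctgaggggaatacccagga
Jag1: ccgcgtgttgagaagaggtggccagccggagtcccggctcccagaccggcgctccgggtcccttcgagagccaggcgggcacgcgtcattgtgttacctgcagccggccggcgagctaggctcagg
Hes5: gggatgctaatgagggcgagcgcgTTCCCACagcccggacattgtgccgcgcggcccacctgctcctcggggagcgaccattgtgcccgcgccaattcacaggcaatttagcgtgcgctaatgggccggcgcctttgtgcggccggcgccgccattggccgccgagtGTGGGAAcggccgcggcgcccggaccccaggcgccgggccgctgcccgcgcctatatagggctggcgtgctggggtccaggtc
Hey2: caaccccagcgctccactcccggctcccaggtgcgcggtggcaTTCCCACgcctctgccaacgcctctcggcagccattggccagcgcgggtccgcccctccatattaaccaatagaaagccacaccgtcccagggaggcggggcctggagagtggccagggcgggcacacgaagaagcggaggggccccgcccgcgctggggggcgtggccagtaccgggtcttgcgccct

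Most of the genes carried the mark within 1 kb of their start, to very different extents, and both classes held members with broad coverage and members with almost none. A gene is written as marked when at least 1 base of a peak lay in the 2001 bp window reaching 1 kb to each side of its annotated 5′ end, in both replicates. Of the ligands 4 of 5 were marked and of the targets 4 of 5, against 26.1% of all protein-coding genes. The exceptions were Jag2, with a peak in replicate 1 alone, and Hes1, with none in either. Within 5 kb of the start 5 of 5 ligands and 4 of 5 targets had a peak in both replicates, against 33.9% of all genes, and the counts over the gene body were the same, against 33.8%. The start base itself lay under a peak in both replicates at 2 of 5 ligands (Dll1 and Dll4) and 2 of 5 targets (Hes5 and Heyl), against 9.59% of all genes. No test was run on these counts, since genes are not replicates and the 10 genes were chosen with results of these data known. When at least 50% of the window had to be covered in both replicates, 2 of 5 ligands (Dll1 and Dll4) and 3 of 5 targets (Hes5, Hey2 and Heyl) remained, against 14% of all genes.

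Among the Delta-like ligands, Dll4 had the fullest coverage within 1 kb and 5 kb of the start and Dll3 the least. Over the gene body Dll1 had the least, with 66.3% covered in replicate 1 and 66% in replicate 2. Dll3 had 78% and 79.1% there, and Dll4 83.6% and 90.3%. Dll4 restrains the sprouting of blood vessels and acts in arterial fate. Dll4 (ENSMUSG00000027314.6, chromosome 2, 119325784 to 119335962, plus strand) was covered over all 2001 bp within 1 kb of its start in each replicate. Within 5 kb it had 9336 bp and 9568 bp of 10001 bp, more than 99.4% of all genes by the bases common to both replicates. Its highest peak had a signal value, the authors' own measure of a peak's height, of 17.3 in replicate 1 and 16.5 in replicate 2, above 99.93% and 99.91% of the peaks of each list. In replicate 1 a single peak ran from -5669 to 1013 bp around the start.

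Dll1, which carries Notch signals between neural progenitors and in the presomitic mesoderm, was nearly as broadly covered around its start, with lower peaks. Its gene (ENSMUSG00000014773.13, chromosome 17, 15367354 to 15376872, minus strand) had 1767 bp and 1638 bp covered within 1 kb in replicates 1 and 2, and 8650 bp and 8859 bp within 5 kb. The bases common to both replicates were divided evenly around the start, 4031 bp upstream and 4150 bp downstream. The highest peak began 780 bp after the start in replicate 1 and 896 bp after it in replicate 2, with signal values of 11.8 and 11.6.

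Dll3, a divergent ligand that in the mouse acts inside the cell during somite formation, was marked downstream of its start only. Its gene (ENSMUSG00000003436.11, chromosome 7, 28293553 to 28302238, minus strand) had 600 bp covered within 1 kb in replicate 1 and 825 bp in replicate 2, and 3230 bp and 3638 bp within 5 kb. All 2890 bp common to the replicates within 5 kb lay downstream and 0 bp upstream. The nearest upstream peak was 57218 bp away in replicate 1 and 61768 bp in replicate 2, while the nearest downstream one began at 401 bp and 55 bp. The signal within 1 kb was modest, at 4.38 and 5.49, and the highest peaks within 12 kb spanned the 3′ end of the gene, reaching 8.43 in a peak from 7565 to 10150 bp after the start in replicate 1 and 8.68 in one from 7704 to 8971 bp in replicate 2.

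The Jagged ligands carried less of the mark than Dll1 and Dll4 at their starts. Jag1, needed for the development of bile ducts and the inner ear, spans 35189 bp on chromosome 2 (ENSMUSG00000027276.7, 137081456 to 137116644, minus strand). It had 444 bp covered within 1 kb in replicate 1 and 263 bp in replicate 2, all of it inside the gene, and 999 bp and 797 bp within 5 kb. A single peak in replicate 1 ran from 557 to 1555 bp after the start with a signal value of 4.93, and in replicate 2 one ran from 738 to 1109 bp with 5.21, above 57.2% and 72.8% of the peaks of each list. Upstream, the nearest peak was 930586 bp away in replicate 1 and 639649 bp in replicate 2, the longest peak-free approach to a start among the 10 genes.

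Jag2, which acts in limb, palate and thymus development, was marked on both flanks of its start but not over it. The gene lies on chromosome 12 (ENSMUSG00000002799.6, 112907819 to 112929776, minus strand). Within 1 kb it had 393 bp covered in replicate 1, from a peak with a signal value of 3.56, and 0 bp in replicate 2. Within 5 kb it had 5127 bp and 3954 bp, and the highest peaks there reached 6.58 and 7.56. The stretch free of peaks around the start was 2034 bp long in replicate 1 and 2191 bp in replicate 2. Jag2 was marked in both replicates when any annotated transcript start was allowed, since a non-coding transcript begins 1328 bp downstream, and in the list called on both libraries together, with 499 bp within 1 kb.

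**Figure D1:**
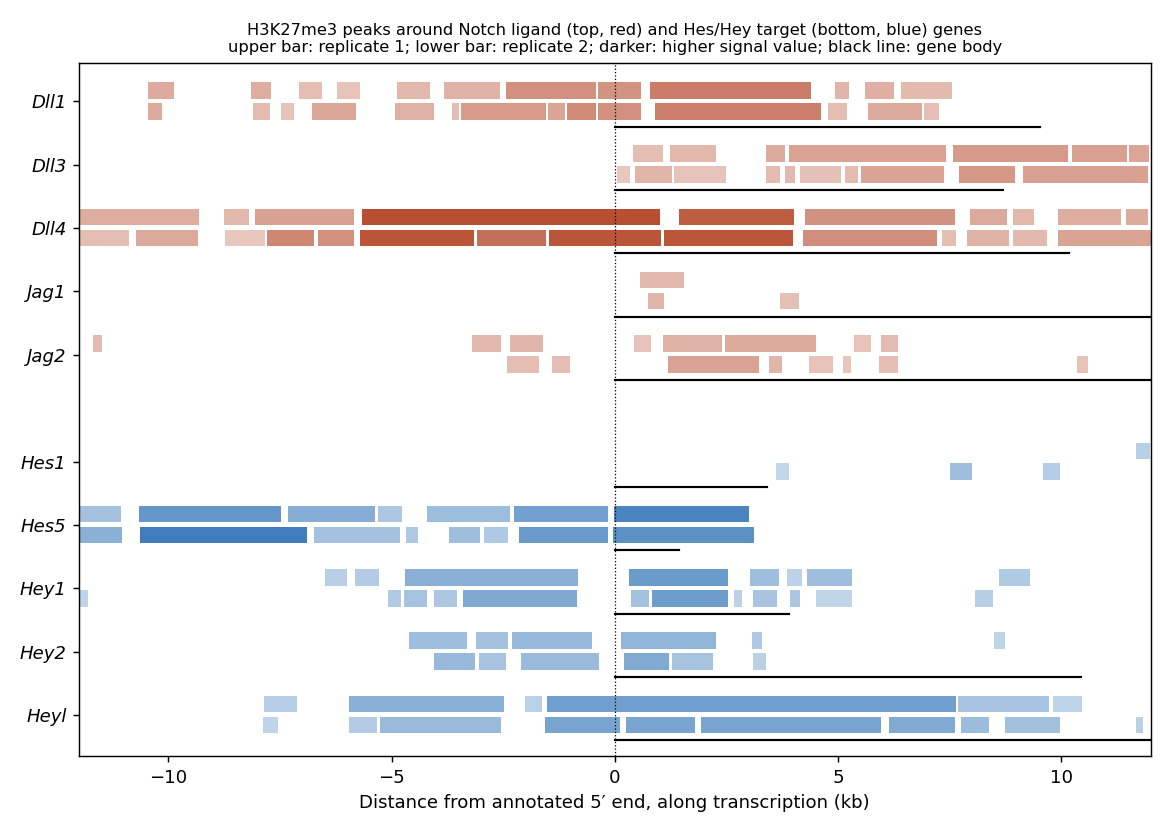
Peaks of H3K27me3 by distance from the annotated 5′ end (x axis, kb, transcription to the right) for the 5 ligands (red, top) and 5 targets (blue, bottom), replicate 1 above replicate 2, darker bars having a higher authors' signal value and black lines marking the gene body. Dll1, Dll4, Hes5 and Heyl are covered over the start, Jag2, Hey1 and Hey2 have a break there, Dll3 has peaks downstream only, and Hes1 has no peak within 1 kb.

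Among the targets, Hes5 and Hes1, both repressors that keep neural progenitors undifferentiated, differed most in the height of their peaks, with the highest signal of the targets within 5 kb at Hes5. Hes5 (ENSMUSG00000048001.7, chromosome 4, 154960923 to 154962371, plus strand) had 1866 bp covered within 1 kb in replicate 1, 1901 bp in replicate 2, and 7221 bp and 6853 bp within 5 kb of the start. The whole gene, 1449 bp, lay under peaks in both replicates. Its highest peak began just before the start, at -17 bp in replicate 1 and -51 bp in replicate 2, with signal values of 14.8 and 13.0, above 99.58% and 99.1% of the peaks of each list. The next peak upstream ended at -153 bp and -152 bp, which left the short break in the sequence shown above. Further upstream, a peak between -10648 and -7471 bp in replicate 1 reached 12.2, and one between -10626 and -6886 bp in replicate 2 reached 15.9, higher than the peak at the start in that replicate.

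Hes1 (ENSMUSG00000022528.8, chromosome 16, 30064384 to 30067796, plus strand) had 0 bp under peaks within 1 kb in either replicate and 0 bp over its gene body. Within 5 kb it had 0 bp in replicate 1 and 294 bp in replicate 2, from a peak that began 3612 bp after the start, past the 3′ end of the gene, with a signal value of 2.90, above 3.85% of the peaks of its list. The nearest upstream peaks were 25787 bp and 15311 bp away. The annotated 5′ end belongs to a non-coding transcript and the protein-coding one begins 956 bp downstream, but no transcript start of Hes1 had a peak within 1 kb in both replicates. The relaxed lists, which hold more and weaker peaks, had 0 bp within 1 kb in either replicate too, and 206 bp and 325 bp within 5 kb.

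The Hey genes, repressors that act in heart, vessel and somite development, were each marked, in different shapes. Heyl (ENSMUSG00000032744.4, chromosome 4, 123233556 to 123249875, plus strand) was covered across its start, with 2001 bp within 1 kb in replicate 1 and 1884 bp in replicate 2, and 9424 bp and 8781 bp within 5 kb. Its highest peaks had signal values of 11.0 and 10.1. In replicate 1 a single peak ran from -1522 to 7634 bp.

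Hey1 (ENSMUSG00000040289.8, chromosome 3, 8663359 to 8667256, minus strand) was broadly marked on both sides but not at its start. It had 861 bp covered within 1 kb in replicate 1 and 709 bp in replicate 2, against 7793 bp and 7319 bp within 5 kb. The peak-free stretch around the start was 1140 bp and 1220 bp long. In replicate 1 the peak just downstream of that break, from 313 to 2538 bp, had a signal value of 11.5, above 97.2% of its list. In replicate 2 a peak of 5.78 from 374 to 768 bp came first, and one of 11.3 followed from 841 to 2536 bp, above 97.9% of its list. Common bases within 5 kb numbered 3565 bp upstream and 3329 bp downstream.

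Hey2 (ENSMUSG00000019789.9, chromosome 10, 30832359 to 30842801, minus strand), which sets the identity of the compact heart muscle, had the same shape with a shorter break, 653 bp long in replicate 1 and 554 bp long in replicate 2. It had 1348 bp and 1447 bp covered within 1 kb, and 6142 bp and 5498 bp within 5 kb. Its highest peaks reached 7.67 and 9.25, the lowest among the 4 marked targets.

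**Figure D2:**
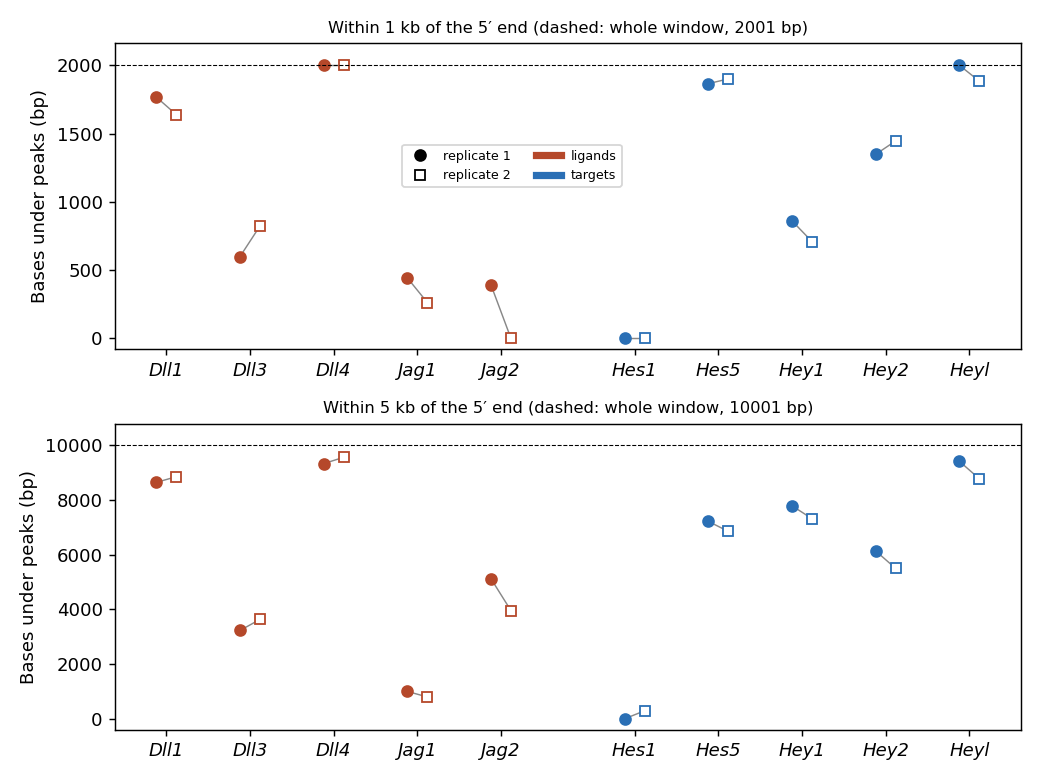
Bases under peaks (y axis, bp) within 1 kb (upper panel) and 5 kb (lower panel) of the 5′ end for each gene, ligands in red left of targets in blue, filled circles for replicate 1 and open squares for replicate 2, with a dashed line at the whole window. Coverage within 1 kb runs from 0 bp at Hes1 to 2001 bp at Dll4, and the replicates lie close together for most genes.

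Set side by side, the ligands and the targets had overlapping ranges. Within 5 kb the ligands had a median of 5127 bp in replicate 1 (999 to 9336 bp) and 3954 bp in replicate 2 (797 to 9568 bp), and the targets a median of 7221 bp (0 to 9424 bp) and 6853 bp (294 to 8781 bp). Over all protein-coding genes the median was 0 bp in each replicate, and the 75th percentiles were 1246.5 bp and 1342 bp. By bases common to both replicates the medians were 3038 bp for ligands and 6442 bp for targets, and they were 6710 bp and 7678 bp in the list called on both libraries together. The ligand median rested on Jag2 in each of these cases, and leaving out replicate 2 moved it to 5127 bp. The highest peak within 5 kb ranged over the ligands from 4.93 at Jag1 to 17.3 at Dll4 in replicate 1, and over the 4 targets with a peak there from 7.67 at Hey2 to 14.8 at Hes5. In replicate 2 it ranged over the ligands from 5.21 to 16.5 and over the 5 targets from 2.90 to 13.0. The median peak of the whole list had a signal value of 4.66 in replicate 1 and 4.32 in replicate 2. The difference between the classes was not tested, since the series has a single group of 2 samples.

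**Figure D3:**
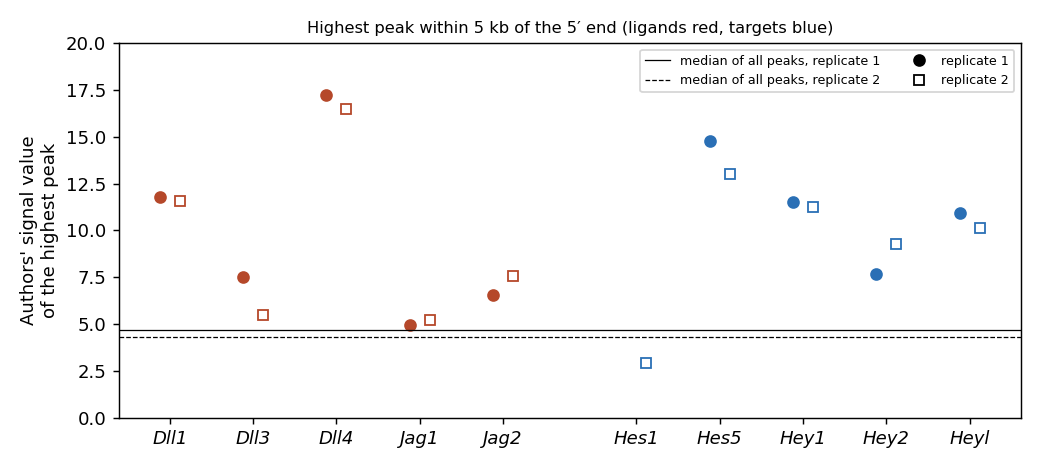
Authors' signal value of the highest peak within 5 kb of the 5′ end (y axis) for each gene, ligands in red left of targets in blue, filled circles for replicate 1 and open squares for replicate 2, with lines at the median of all peaks of each list. Dll4 and Hes5 stand highest, Jag1 lies just above the medians, and Hes1 has a value in replicate 2 only, 2.90, below them.

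The mark extended beyond the genes into domains of unequal length. Domains were made by joining common bases within 3 kb, which over the genome gave a median of 1521 bp. The domain at Dll4 spanned 24.7 kb, that at Heyl 21.3 kb, that at Dll1 17.7 kb and that at Hes5 15.6 kb, the longest exceeding 98.6% of all domains. Dll3 lay in a domain of 15.2 kb that stopped short of its own start and held the start of Selenov, a selenoprotein gene. The domains at Hey1, Jag2 and Hey2 were 10 kb, 8.67 kb and 7.36 kb long, and each spanned the break over the start because the break was shorter than the joining distance. Jag1 had 372 bp of common bases and Hes1 none. The lengths depended on the joining distance. Joined within 1 kb, some domains split, and the piece lying most within 5 kb of the start was measured. It was 15.4 kb at Dll1, 1.81 kb at Dll3, 6.72 kb at Hes5, 11.5 kb at Heyl, 4.93 kb at Hey1 and 3.33 kb at Jag2. At Dll3 the common bases further downstream fell outside that piece. Except at Dll3, no other protein-coding start lay in the domains joined within 3 kb. Pank4, a pantothenate kinase relative whose start is 3200 bp from that of Hes5, had 808 bp and 915 bp covered within 1 kb in replicates 1 and 2. All of it was the end of the peak over the Hes5 start. That peak reached 3007 bp and 3114 bp past the Hes5 start, short of the start of Pank4.

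Within the genes the share of bases under peaks differed between coding sequence, whole exons and introns. At Dll4 common bases covered 97% of the coding sequence and 81.4% of the introns, at Dll3 66.5% and 74%, and at Dll1 50.3% and 63.6%. At Hes5 they covered 100% of each, and at Hey1 75.4% of the coding sequence and 100% of the introns. Heyl had 64% and 71%. Over whole exons, untranslated parts included, the share was 61.1% at Hey1 and 30.9% at Heyl, below that of their introns. Dll1, Dll3 and Jag2 had the same order. At Dll4, Hey2 and Jag1 the exon share was the larger, at 83%, 29.9% and 3%. At Hey2, whose mark stayed near the start, 10.6% of the coding sequence and 13.1% of the introns were covered. Jag2 had 0% of the coding sequence and 16.9% of the introns covered, and Jag1 4.79% and 0.671%. A longer gene has more room for both a peak and an uncovered stretch, and the genes range from 1449 bp (Hes5) to 35189 bp (Jag1).

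The promoters ranged from a CpG content typical of all genes to a far higher one, in both classes. The ratio of observed to expected CpG over 500 bp on each side of the start had a median of 0.638 over the ligands (0.454 at Dll3 to 0.921 at Jag1 and Jag2) and 0.818 over the targets (0.537 at Heyl to 0.915 at Hey1). The median over all protein-coding genes was 0.558. It was 0.634 over those marked within 1 kb and 0.474 over those not marked in both replicates. Hes1, without the mark, had a ratio of 0.818, close to 0.799 at Hes5, which was marked over most of its window. The Hes1 window lies at the 5′ end of a non-coding transcript and does not reach the protein-coding start 956 bp downstream. The ratio at that coding start was not computed, and the target median rested on the Hes1 value. The 4 genes whose start base was covered in both replicates had ratios of 0.601 at Dll4, 0.638 at Dll1, 0.799 at Hes5 and 0.537 at Heyl. The genes with a break at the start or little mark had 0.921 at Jag1, 0.921 at Jag2, 0.915 at Hey1, 0.853 at Hey2, 0.818 at Hes1 and 0.454 at Dll3. Apart from Dll3, each of these lay above the 4 with a covered start, but not when 250 bp on each side were counted, where Hes5 had 1.01 and Hey2 0.885.

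**Figure D4:**
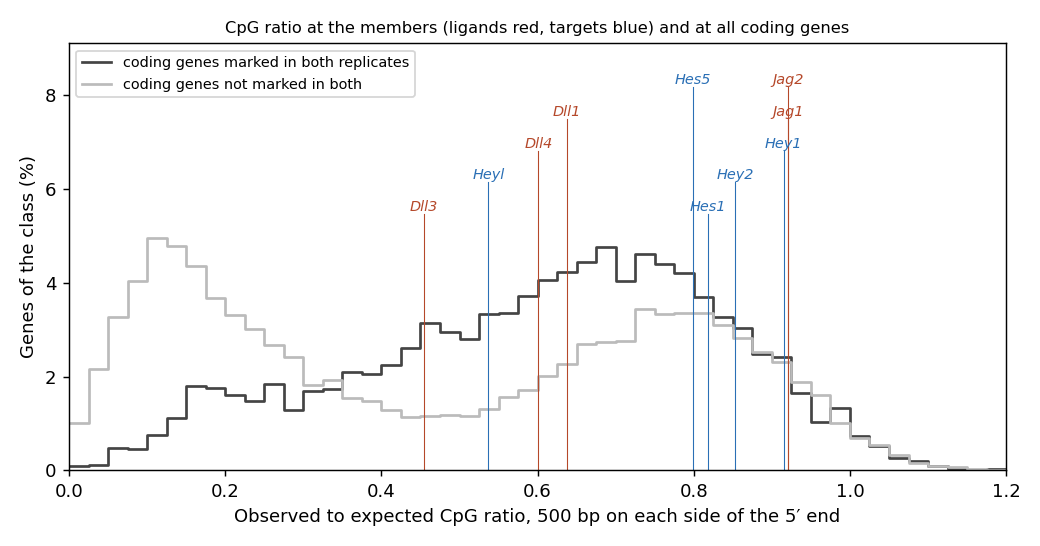
Distribution of the observed to expected CpG ratio (x axis) over coding genes marked in both replicates (dark line) and not marked in both (light line), as a percentage of each class (y axis), with vertical lines at the ligands (red) and targets (blue). The members run from 0.454 at Dll3 to 0.921 at Jag1 and Jag2.

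The RBPJ core motif stood upstream of both targets whose sequence is shown. The targets Hes1, Hey1 and Heyl were not searched, so the targets are covered only in part. Hes5 had 2 matches to GTGGGAA or its reverse complement in the 250 bases before the RefSeq start, and Hey2 had 1. Dll1, Dll3, Dll4, Jag1 and Jag2 had 0. Of 21045 promoters of the same length 5.31% held a match. The Hes5 match at -226 lay under a peak in both replicates and the match at -83 lay in the break, uncovered in both. The Hey2 match at -207 from the RefSeq start was uncovered in both. CACGCG, a site bound by Hes proteins, matched 1 time at Dll4, 1 time at Dll1 and 2 times at Jag1, and stood in 10.1% of all promoters. CACGTG matched at none of these genes (6.7% of all promoters). CACNAG, the N-box, matched 1 time, at Dll4 (35.9%). For Dll1 a second RefSeq start further downstream was also searched and held no match, and both strands were read for every motif. A match describes letters only, and no match says nothing of the factor.

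Other genes of the pathway were marked at 26 of 67 starts (38.8%, against 26.1% of all genes), with shares that ranged widely by role. The Hes-related factors outside the 10 were marked at 5 of 7, led by Hes7, the oscillating repressor of the somite clock, with signal values of 13.7 and 12.7, and Hes2, with 13.4 and 13.0. Helt and Bhlhe41 were covered over 2001 bp and 1926 bp within 1 kb in replicate 1. Within 1 kb Bhlhe40 had a peak in replicate 2 alone and Hes3 had none, although Hes3 had 2298 bp and 2560 bp within 5 kb. Nrarp, a feedback inhibitor that Notch turns on, had 1431 bp and 1385 bp covered. The non-canonical ligands were marked at 5 of 6, among them Dlk1, Dlk2, Dner and Cntn1 but not Cntn6, and Dlk1 had signal values of 13.7 and 14.2.

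Of 4 receptors Notch3 alone, mainly a receptor of vascular muscle, was marked, with 225 bp and 244 bp within 1 kb. That share, 25%, was close to the 26.1% of all genes. Notch1 had 531 bp in replicate 2 and 0 bp in replicate 1, and Notch2 and Notch4 had none, although Notch2 had 1099 bp and 2152 bp within 5 kb. Of the enzymes that add sugars to the receptor 2 of 5 were marked: Lfng, a Fringe glycosyltransferase of the somite clock, over 2001 bp in both replicates, and Mfng over 596 bp and 763 bp, whereas Pofut1 and Poglut1 had no peak. The ubiquitin ligases that send ligands into endocytosis were marked at 2 of 4, Neurl1b over 1400 bp and 1694 bp and Neurl1a over 184 bp and 238 bp, and Mib1 and Mib2 had no peak within 1 kb.

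Receptor cleavage had 2 of 9 genes marked, Aph1b over 791 bp and 537 bp and Aph1c over 1365 bp and 1120 bp, which are close copies of each other, so that how reads were placed between them is uncertain. Adam10 had a peak in replicate 2 alone and Adam17 none. The nuclear complex had 4 of 10 marked, Rbpjl, the Mastermind co-activators Maml2 and Maml3, and the acetyltransferase Crebbp, while Rbpj itself, the DNA-binding partner of the receptor, had none within 1 kb, nor had Ep300 or Kat2a. Rbpjl, its pancreatic relative, had 1745 bp and 1605 bp covered. Co-repressors were marked at 2 of 12 (Tle2 over 1831 bp and 2001 bp and Hdac2 over 567 bp and 473 bp, not Cir1 or Ctbp1) and regulators of the receptor at 2 of 9 (Dtx1 over 1910 bp and 2001 bp and Dtx4 over 1427 bp and 1195 bp, not Dtx2 or Dtx3). Receptor cleavage and the regulators of the receptor, at 22.2% each, lay near the 26.1% of all genes. The co-repressors were at 16.7% and the nuclear complex at 40%. Each role holds few genes, and these shares were not tested against each other or against all genes.

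**Figure D5:**
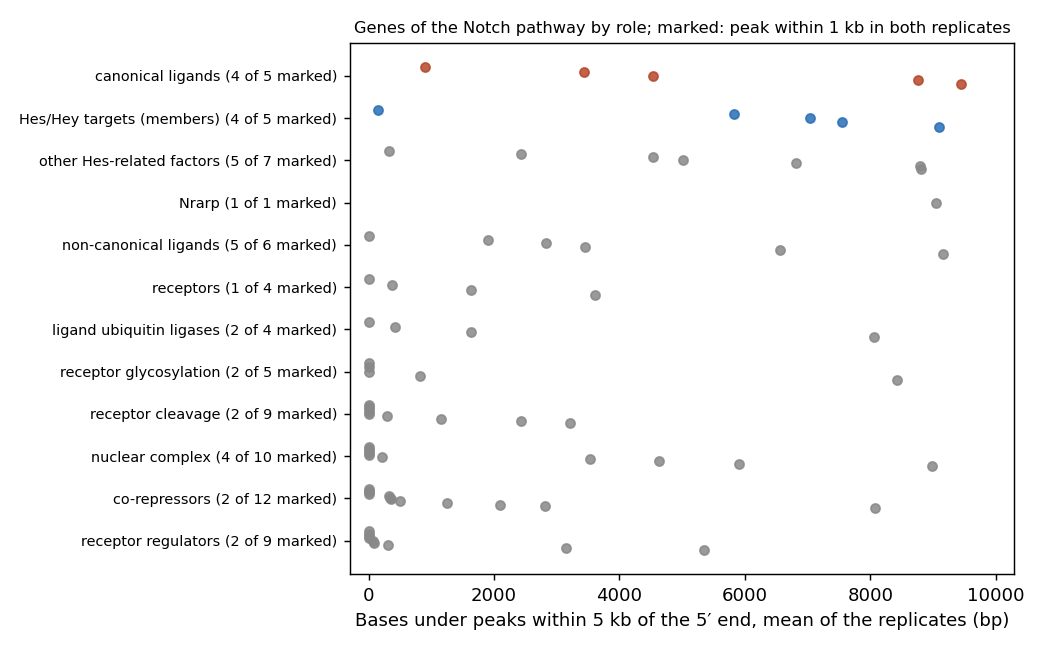
Bases under peaks within 5 kb of the 5′ end, as the mean of the replicates (x axis, bp), for each gene of the Notch pathway by role (y axis), with the number marked within 1 kb in both replicates beside each role, canonical ligands in red and the Hes/Hey members in blue. Most genes of receptor cleavage, the nuclear complex, the co-repressors and the receptor regulators lie near 0 bp, while the ligands, targets and Hes-related factors spread over the whole range.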

How the data were processed

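H3K27me3 ChIP-seq peak lists of 2 biological replicates of a single group were analysed. Per the file headers, the pseudoreplicated list of each replicate was called on that replicate alone on build mm10, and these lists gave the main values. The sources used here name no aligner, peak caller, threshold or control, and control libraries were not analysed here. Each peak has a signal value as deposited by the authors, on a scale that is not stated, which served only to rank and describe peaks within a list. Columns of −log10 p and −log10 q per peak were also deposited. A list on build mm9 was not used here.

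GENCODE mouse release 21, on GRCm38 and so the same build, gave the positions of protein-coding genes of the 19 autosomes and the X chromosome. Covered bases were counted within 1 kb and within 5 kb of the 5′ end, upstream and downstream, and over the gene, with a minimum overlap of 1 bp. Domains joined common bases within 3 kb. A percentile is the share of genes, peaks or domains with a lower value. The counting was checked on made-up peaks with known answers. The depth per sample is unknown, so no counting interval was computed.

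The 10 genes and the pathway lists were chosen with earlier results of these data known. Of other pathway genes, the text names all 4 receptors, up to 4 marked genes of each role with the highest mean rank of signal, and up to 2 unmarked ones in alphabetical order. Rbpj was named after its values were seen. Ccn3 is listed under an older symbol. No test of significance was run. Alternatives were windows of 0.5 kb and 2.5 kb, 50% of the window covered, a −log10 q of at least 2, relaxed, replicated and joint lists, any transcript start, each replicate left out, and joining within 1 kb and 5 kb. Python 3.11.15, NumPy 2.4.6 and Matplotlib 3.10.9 were used.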

Additional observations from a re-analysis of the deposited data

How the results depend on the processing

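No paired analysis was possible because the series holds a single group. With 50% of the window covered, 2 of 5 ligands were marked in place of 4, and 3036 protein-coding genes in place of 5679. Under every other alternative run, the count of marked ligands lay between 3 and 5 and that of marked targets was 4, while the share over all genes ran from 21.4% with 0.5 kb to 34.2% in the replicated list of the first run, against 26.1%. Hes1 was among the marked genes in none of these. With each replicate left out in turn, 4 to 5 ligands and 4 targets were marked, and 6057 to 6574 genes in all. The median of common bases within 5 kb, 3038 bp for ligands and 6442 bp for targets, was 3952 bp and 6829 bp in the relaxed lists, 6346 bp and 7799 bp in the replicated list of the first run, 6414 bp and 7678 bp in that of the second run, and 6710 bp and 7678 bp in the joint list. With each replicate left out it ran from 3954 to 5127 bp for ligands and from 6853 to 7221 bp for targets. A single list counts bases that need not be common to 2 lists. A −log10 q of at least 2 left both medians and both counts as they were. Of 70 values of covered bases for single genes, 51 rose by at least the standard deviation of the 2 replicates. The other 19 moved by less or not at all, and 0 fell beyond it. The −log10 q limit left the value of each gene unchanged. Part of this direction was fixed beforehand. Leaving out a replicate could not lower a count of common bases, and the −log10 q limit could not raise it. Read depth limits what an absent peak can mean, most of all at Hes1 and at the Jag2 start.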
